A study of Mus musculus with 36 samples.

Results

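The first hour of B cell to macrophage transdifferentiation (BMT) with the R35A mutant of C/EBPα was described from RNA-seq of 4 of the 36 libraries of the series, the 2 labelled R35A 0 h and the 2 labelled R35A 1 h. The cells were mouse bone marrow B cells infected with a retrovirus that carries C/EBPα, with alanine in place of arginine 35, joined to the hormone-binding part of the estrogen receptor and marked by human CD4. Estradiol (E2) sends this fusion protein into the nucleus, so the libraries compare infected cells before E2 (0 hours post induction, hpi) with infected cells 1 h after it. The wild-type and R35K (lysine at the same residue) cells used for comparison carried the same kind of construct, with 4 libraries each at the same 2 timepoints, and no library of cells without a construct was analysed here. All were isolated as B cells by antibody, enriched for hCD4 after infection and kept on inactivated mouse embryonic fibroblast (MEF) feeders with IL-7. The study's methods add IL-3, FLT-3, CSF-1 and SCF to the medium in which the cells were induced, and the sources used here do not say whether the 0 hpi cells had them, so the contributions of E2 and of the cytokines to the first hour cannot be told apart. The feeders were removed by their adherence to plastic before RNA extraction, and whether that step fell within the hour is not given. The times are those of the labels, on which every value of the first hour rests, and no independent record of them was used. Most list medians at the labelled times of 1, 3 and 6 h lay close together. By 1 h 8 RNAs of the B cell lists had fallen more than 10-fold and genes spanning long stretches of the genome had risen.

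C/EBPα is a basic leucine zipper transcription factor of granulocyte and macrophage precursors. In B cells it meets PU.1, a partner that B cells and macrophages both use, and together they act on the enhancers of myeloid genes. B cell identity in turn rests on factors such as Ebf1 and Pax5, which drive the pre-B cell receptor and the recombination of immunoglobulin genes, and pre-B cells on IL-7 divide rapidly.

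The 4 libraries held between 13683736 and 17271985 counts on genes, and 16988 of the 40354 genes in the table passed the low-count filter and were tested with edgeR's quasi-likelihood test. Levels are given in CPM, a gene's share of its library's counts after TMM scaling of the library sizes, and a gene was called when it changed at least 1.5-fold and its p, adjusted by Benjamini-Hochberg over the tested genes, was at most 0.05. The common coefficient of biological variation was 3.17%, and the p-values measure only the spread between these libraries, which may be technical. The construct was read through Cebpa and Esr1, the genes its parts come from, whose counts do not separate it from the endogenous genes. Cebpa stood at 40.9 and 35.7 CPM at 0 hpi and 53.5 and 56.1 CPM at 1 hpi, below the 1.5-fold threshold, and Esr1 at 56.6 and 54.8 CPM at 0 hpi and 46.5 and 46.4 CPM at 1 hpi. In wild-type cells the mean of Cebpa went from 41.8 to 107 CPM and that of Esr1 from 62.2 to 151 CPM.

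Within the first hour 3110 genes were called higher (18.3% of those tested) and 3219 lower (18.9%) in R35A cells. The all-gene median log2 change was -0.0075, the middle of the distribution lay between -0.48 and 0.49 (quartiles), and the rises reached further than the falls. At least 2-fold rises were seen in 1715 genes and falls of that size in 1955. At 8-fold the counts were 388 and 205. Of the 388, 169 had 3 or fewer counts in both libraries at 0 hpi, which was taken as the detection floor, and of the 205, 81 were at that floor at 1 hpi. Folds against the floor are given below as lower bounds, computed against 3 counts per library and covering counting error only.

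**Figure D1:**
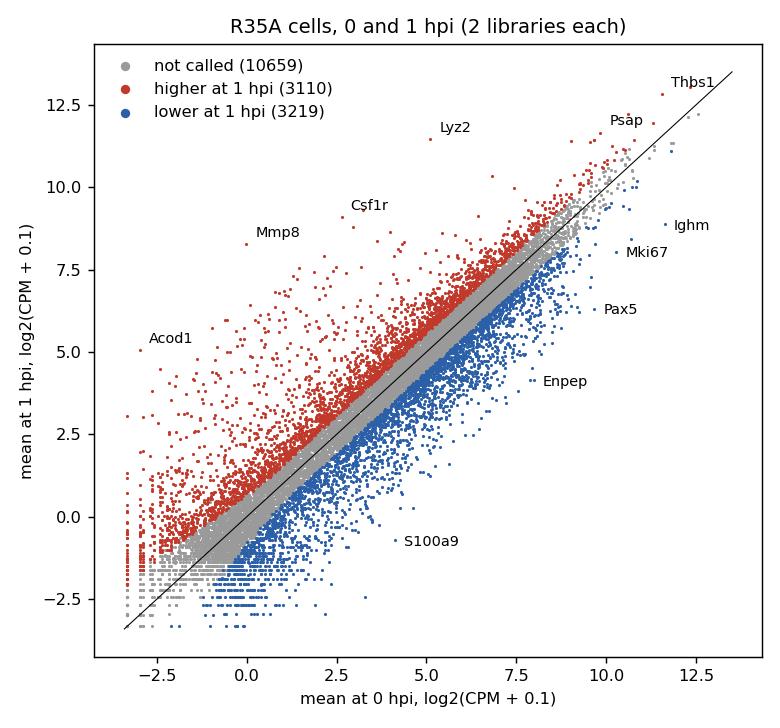
Mean expression of the 16988 tested genes in R35A cells at 0 hpi (horizontal axis) and 1 hpi (vertical axis), both as log2(CPM + 0.1), with the line of equal level. Red points are the 3110 genes called higher, blue points the 3219 called lower and grey points the others, and the rises of Lyz2, Mmp8 and Csf1r stand far off the line while the falls stay closer to it.

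Before E2 the R35A cells carried the pre-B cell markers at high levels, with Pax5 at 813 and 815 CPM and Igll1, part of the surrogate light chain, at 559 and 567 CPM. The markers of macrophages were low, their summed level being 83.2 and 81.2 CPM at 0 hpi and 4361 and 4319 CPM at 1 hpi. Fibroblast markers were abundant in all 4 libraries, and 7 of 8 tested markers were called higher at 1 hpi. Their summed level went from 2046 and 2079 CPM to 3764 and 3773 CPM, and in wild-type cells the sum of means went from 1937 to 3681 CPM. Neutrophil markers were present at 0 hpi at a summed 40.3 and 38.9 CPM and fell to 2.99 and 2.26 CPM, with 5 of 5 tested called lower. Of the 6 T cell markers 4 were too low to be tested and the summed level was between 2.43 and 4.43 CPM, and of the 7 erythroid markers 6 were too low, with a sum between 0.232 and 0.708 CPM. Cd3e and Hba-a2 had 0 counts in the 4 libraries. In bulk RNA, fewer cells of a type and less RNA per cell cannot be told apart, and the part of these other cells in the results below was not tested.

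The largest rises were in genes of phagocytes. Mmp8, the neutrophil collagenase, stood at 1.24 and 0.545 CPM at 0 hpi and 313 and 311 CPM at 1 hpi, a ratio of mean levels of 349 (log2 change 8.50 ± 0.08 (SE), adjusted p = 2.3e-54, edgeR quasi-likelihood test). Acod1, which makes itaconate in activated macrophages, had 0 and 0.0545 CPM at 0 hpi and 34.3 and 32.0 CPM at 1 hpi and rose at least 179-fold. Hp, haptoglobin, went from 0.622 and 0.545 CPM to 61.5 and 64.5 CPM, a 108-fold rise. A pair of genes of the membrane-spanning 4A family of macrophages rose as well, Ms4a4a from 0.346 and 0.490 CPM to 53.0 and 53.6 CPM and Ms4a6d from 0.415 and 0.708 CPM to 63.3 and 62.3 CPM. In the same cluster on chromosome 19, Ms4a1, which encodes the B cell antigen CD20 and lies at 11249675 to 11266241, fell from 34.4 and 33.5 CPM to 2.82 and 1.68 CPM. Ms4a4a lies at 11375523 to 11392790 and Ms4a6d at 11586604 to 11604849 in mm10, so members of this cluster went in opposite directions. The other 5 genes named for their fold were Sirpb1c, Tlr8, Fcrls, Clec4a3 and Ifitm6. Tlr8, an endosomal receptor for RNA, had 0.0691 and 0.0545 against 13.6 and 14.3 CPM, at least 75.2-fold higher. Clec4a3, a C-type lectin receptor, had 0.207 and 0.109 against 19.0 and 19.5 CPM (at least 104-fold), Sirpb1c 0.0691 and 0.109 against 21.7 and 23.2 CPM (at least 121-fold) and Fcrls 0.138 and 0.109 against 17.3 and 15.7 CPM (at least 89.2-fold). Ifitm6 rose 97.8-fold, from 0.346 and 0.218 CPM to 27.2 and 27.9 CPM. It had only 5 and 4 counts at 0 hpi, just above the floor, so that fold is imprecise. In each of these 10 genes both libraries at 1 hpi lay far above both at 0 hpi. The genes were chosen by fold and for no overlap of the replicates, so nothing is read from this.

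The 10 genes with the largest falls were mostly genes of B cells and their precursors. The exception at the top was S100a9, a calcium-binding protein of granulocytes, which fell from 17.0 and 18.0 CPM to 0.733 and 0.289 CPM. Enpep, the aminopeptidase known as the pre-B cell antigen BP-1, fell 14.5-fold from 252 and 256 CPM to 17.9 and 17.2 CPM (log2 change -3.86 ± 0.05 (SE), adjusted p = 3.29e-48, edgeR quasi-likelihood test). Rag1, a subunit of the recombinase that cuts immunoglobulin gene segments, fell 14.2-fold from 78.7 and 77.6 CPM to 5.70 and 5.33 CPM. Cd22, an inhibitory receptor of B cells, went from 88.5 and 87.4 CPM to 6.54 and 5.90 CPM (14.1-fold), and Vpreb2, a part of the surrogate light chain, from 33.7 and 31.6 CPM to 2.54 and 2.14 CPM (13.9-fold). Ly6d, an early B lineage surface protein, fell from 46.8 and 52.4 CPM to 2.99 and 2.84 CPM, and Cxcr5, the receptor that takes B cells to follicles, from 9.96 and 12.3 CPM to 1.13 and 0.463 CPM. Sh2d2a, a signalling adaptor of lymphocytes, fell 17.2-fold and Arpp21, a phosphoprotein best known from neurons, 21.9-fold. From Ms4a1 to Vpreb2 in order of fold, 6 of the 10 falls lay between 13.9-fold and 15.1-fold.

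**Figure D2:**
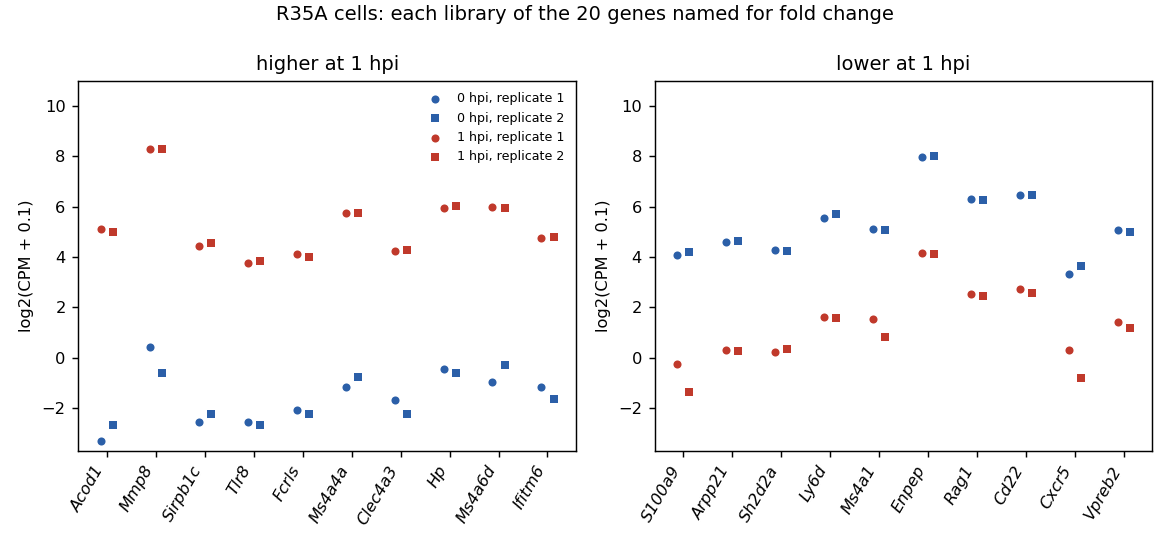
Level of each library, log2(CPM + 0.1), for the 10 genes with the largest rises (left) and the 10 with the largest falls (right) in R35A cells, with blue for 0 hpi, red for 1 hpi, circles for replicate 1 and squares for replicate 2. The 4 libraries of every gene form separate pairs by timepoint, which the rule that chose the genes required.

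The genes that took up the largest part of the RNA gave another list. Lyz2, the macrophage lysozyme, rose from 35.2 and 33.5 CPM to 2818 and 2817.5 CPM, an 82.0-fold change. Psap, which encodes the saposin precursor of lysosomes, rose 3.51-fold from 904 and 929.9 CPM to 3259 and 3185.5 CPM. The other 3 of the 5 largest gains in CPM were extracellular matrix genes that fibroblasts express: Thbs1 went from 3038 and 2994 CPM to 7298 and 7303 CPM, Fn1 from 5049 and 5185 CPM to 8354 and 8349.8 CPM and Tnc from 1528 and 1572 CPM to 4834 and 4814 CPM. The 5 largest losses began with Ighm, the immunoglobulin mu heavy chain, which fell 6.76-fold from 3168 and 3191 CPM to 481 and 459 CPM. Cd24a, a surface protein of early B cells, fell from 1682 and 1611 CPM to 342 and 341 CPM, and Mki67, a protein of dividing cells, from 1248.5 and 1243 CPM to 259 and 269.8 CPM. Tubb5, a beta-tubulin, went from 1589 and 1584 CPM to 647 and 637 CPM and the chaperone Hsp90ab1 from 3519 and 3565 CPM to 2187 and 2192 CPM, a 1.62-fold fall.

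The promoters of a few of these genes are shown because they hold short sequence matches of factors that the switch is known to involve. RefSeq gives a promoter for 11753 of the 16988 tested genes on GRCm38.p6 (mm10), and the 250 bases before the start were searched on both strands for a C/EBP motif (TTGCNNAA), a PU.1 motif (GAGGAAGT), an AP-1 motif (TGANTCA), an E2F motif (TTTCCCGC) and an EBF1 motif (CCCNNGGG). Matches are in capitals, and no match overlaps another in the windows shown. They were chosen after the matches were seen. Mmp8 is among the 10 largest rises and Clec4e among the myeloid receptors, and Enpep and Cd22 stand for the falls of B cell genes and Cdc6 for those of DNA replication.
Mmp8 (chr9:7558179-7558428, plus strand): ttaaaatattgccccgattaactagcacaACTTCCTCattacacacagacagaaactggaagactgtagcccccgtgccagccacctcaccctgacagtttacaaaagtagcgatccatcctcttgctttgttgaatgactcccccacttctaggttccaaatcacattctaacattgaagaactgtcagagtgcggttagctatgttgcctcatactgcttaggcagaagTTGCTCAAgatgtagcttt
Clec4e (chr6:123289872-123290121, minus strand): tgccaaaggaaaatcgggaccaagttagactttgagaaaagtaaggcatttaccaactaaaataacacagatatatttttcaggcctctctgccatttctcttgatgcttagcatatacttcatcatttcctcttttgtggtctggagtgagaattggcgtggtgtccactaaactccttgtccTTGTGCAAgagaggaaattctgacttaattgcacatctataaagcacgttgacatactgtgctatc
Enpep (chr3:129332750-129332999, minus strand): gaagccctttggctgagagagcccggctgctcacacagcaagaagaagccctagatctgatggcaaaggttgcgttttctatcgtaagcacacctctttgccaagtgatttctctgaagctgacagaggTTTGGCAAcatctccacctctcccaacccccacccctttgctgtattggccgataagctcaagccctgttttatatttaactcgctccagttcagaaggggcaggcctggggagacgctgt
Cd22 (chr7:30879029-30879278, minus strand): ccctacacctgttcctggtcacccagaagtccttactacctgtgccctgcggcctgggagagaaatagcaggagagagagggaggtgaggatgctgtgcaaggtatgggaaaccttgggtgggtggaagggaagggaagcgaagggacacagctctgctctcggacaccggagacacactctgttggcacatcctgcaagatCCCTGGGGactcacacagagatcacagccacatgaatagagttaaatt
Cdc6 (chr11:98907901-98908150, plus strand): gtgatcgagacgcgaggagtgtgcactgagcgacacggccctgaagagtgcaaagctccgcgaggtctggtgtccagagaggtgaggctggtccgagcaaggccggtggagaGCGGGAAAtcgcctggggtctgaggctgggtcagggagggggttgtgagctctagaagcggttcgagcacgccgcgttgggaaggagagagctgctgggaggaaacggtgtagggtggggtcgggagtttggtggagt
The Mmp8 window holds a PU.1 match that begins 221 bases before the start and a C/EBP match at 19 bases. The matches begin 66 bases before the start in Clec4e (C/EBP), 121 in Enpep (C/EBP), 48 in Cd22 (EBF1) and 138 in Cdc6 (E2F). These starts are those of the RefSeq promoters. In the GENCODE vM21 annotation Cdc6 begins at 98907801 and Cd22, on the minus strand, at 30880342. By that annotation the windows of both lie within the gene. A C/EBP match is found beside a gene that fell as well as beside genes that rose.

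Over the tested genes, 7.55% of the 250-base windows hold the C/EBP letters (9.55% of all 27025 promoters). Of the 256 promoters of genes that rose at least 8-fold, 14.5% hold them, against 8.13% of the 406 of genes that fell at least 4-fold. The PU.1 letters are in 2.57% of tested, 8.20% of the strongly risen and 3.69% of the strongly fallen promoters (2.44% of all), and the AP-1 letters in 4.75%, 12.1% and 4.19% (6.87% of all). In all risen and all fallen genes the shares are 9.5% and 7.45% for C/EBP and 3.09% and 2.88% for PU.1. For AP-1 they are 7.77% and 3.88%. The E2F letters are in 1.65% of tested promoters, in 3.11% of the 2188 of all fallen genes and in 0.702% of the 2137 of all risen genes (0.929% of all). They are in 2.46% of the strongly fallen and 0.391% of the strongly risen promoters. The EBF1 letters are in 15.6% of tested promoters (11.7% of all), in 17.2% of the strongly fallen and 11.7% of the strongly risen ones, but in 14.2% of those of all fallen and 17.9% of those of all risen genes. These shares are descriptions, and the windows of the strongly risen genes had a mean GC content of 49.4% against 59.4% over the tested genes.

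Of the transcription factors of myeloid cells, 15 of 19 tested were called higher and 2 lower, with a median log2 change of 1.56, and of 1.49 with Batf3, at the floor at 0 hpi, set to its bound. Cebpe, the factor of late granulocytes, had at most 1 count per library and was not tested. Spi1, which encodes PU.1, rose 2.97-fold from 32.1 and 32.6 CPM to 95.4 and 96.4 CPM, and Cebpb and Cebpd, the sister factors of C/EBPα, rose from 22.7 and 24.2 CPM to 66.8 and 73.0 CPM and from 10.1 and 9.97 CPM to 30.2 and 29.1 CPM. Tfec, the macrophage member of the Mitf family, had 0.622 and 0.817 against 11.3 and 10.9 CPM, Nfe2 0.760 and 0.327 against 3.05 and 3.30 CPM, and Pparg, the lipid-sensing nuclear receptor, 2.0 and 1.85 against 9.02 and 9.72 CPM. Irf5 and Maf, a pair of macrophage factors, reached log2 changes of 1.68 and 1.64. Irf8, which directs monocytes and dendritic cells and is also expressed in B cells, fell from 156 and 158 CPM to 59.3 and 59.9 CPM, and Gfi1, a repressor of granulocyte and lymphoid precursors, fell from 12.1 and 10.9 CPM to 2.59 and 2.89 CPM. Runx1 was not called, at 144 and 137 against 159 and 157 CPM.

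Of the 27 gene lists, with the short marker lists of cell types left aside (macrophage markers had a median of 5.19), myeloid receptors and adhesion molecules had the highest median, 4.96 (4.88 with the 3 genes at the floor at 0 hpi set to their bound), and 46 of 48 tested members were called higher and 0 lower. Csf1r, the receptor of macrophage colony-stimulating factor, rose from 5.88 and 6.43 CPM to 555 and 544 CPM, and Cd33, a sialic acid receptor, from 1.52 and 1.74 CPM to 117 and 111 CPM. Clec4e, which senses mycobacterial glycolipid, rose from 1.18 and 0.762 CPM to 84.0 and 87.3 CPM, and its relative Clec4d from 1.52 and 2.02 CPM to 109 and 114 CPM. Fpr2, a receptor for formylated peptides, had 0.0691 and 0.0545 against 8.68 and 8.10 CPM and rose at least 45.3-fold. Tyrobp, the adaptor through which many of these receptors signal, rose from 3.11 and 3.98 CPM to 174 and 169.7 CPM, Itgam, the integrin known as Mac-1, from 2.35 and 1.63 CPM to 53.6 and 54.4 CPM, and Tlr2 from 4.98 and 5.34 CPM to 178 and 171 CPM. The exceptions were Trem1, at 15.4 and 14.5 against 15.6 and 14.5 CPM, and Fcgr2b, the inhibitory Fc receptor that B cells also carry, at 76.5 and 74.0 against 60.5 and 60.1 CPM. The receptors of colony-stimulating factors rose unevenly, Csf2ra going only from 12.7 and 13.0 CPM to 17.8 and 20.9 CPM while Csf2rb went from 39.5 and 37.7 CPM to 278 and 273 CPM.

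The granule and lysozyme list split into 10 members called higher and 12 lower. Those that rose were Mmp8, both lysozymes, subunits of the phagocyte NADPH oxidase, Mmp9 and Lcn2. Cybb, the catalytic subunit of the oxidase, went from 16.8 and 15 CPM to 409 and 396 CPM, Ncf1 from 5.05 and 5.61 CPM to 50.4 and 47.9 CPM and Cyba from 58.4 and 60.6 CPM to 154 and 149 CPM. Those that fell were granule proteins of immature and mature neutrophils. Mpo, myeloperoxidase, had 4.56 and 4.30 against 0 and 0.0579 CPM, at least 25.9-fold lower, Ngp 10.4 and 9.04 against 0.113 and 0.0579 CPM, at least 56.8-fold lower, and Ltf, lactoferrin, 4.70 and 5.28 against 0.113 and 0.174 CPM, at least 29.1-fold lower. The median of the list, -2.11 (-1.82 with the 8 floor genes at their bounds), lies between the groups, and in a fit of only the groups compared, with 20 members tested, 10 higher and 10 lower, it was -0.416. The neutrophil markers given above fell too, but the lists share genes such as Ngp, so this is in part the same observation.

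Cytokines and chemokines rose in 28 of 31 tested members and fell in 1 (median log2 change 3.43). Il12b and Ccl17 had too few counts to be tested. Il1b, an early inflammatory cytokine, went from 0.207 and 0.218 CPM to 14.3 and 11.9 CPM, and the neutrophil-attracting Cxcl2 and Cxcl3 from 1.52 and 1.36 CPM to 64.5 and 64.1 CPM and from 0.346 and 0.0545 CPM to 8.52 and 8.86 CPM. Tnf went from 3.60 and 4.79 CPM to 41.8 and 42.2 CPM. The monocyte attractants Ccl2 and Ccl9 rose from 8.37 and 9.75 CPM to 196 and 185 CPM and from 5.6 and 5.39 CPM to 192 and 194 CPM, and Il6 from 2.14 and 2.23 CPM to 38.7 and 38.5 CPM. Il18, which activates NK and T cells, was the member that fell, from 6.36 and 8.71 CPM to 2.88 and 2.84 CPM, and Tgfb1 stood at 150.2 and 145 against 129 and 128 CPM. Several members that were already high at 0 hpi rose by less, such as Ptgs2, the inducible cyclooxygenase, from 560.4 and 530.0 CPM to 1349 and 1319 CPM, and Csf1 from 206 and 212 CPM to 552 and 551 CPM. Both are also genes of fibroblasts, whose markers rose by a median of 1.06 in the same libraries.

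Genes of the NF-kB pathway, which many of these cytokines use, rose in 12 of 18 members and fell in 0 (median 0.94). The subunits Rela (96.2 and 96.2 against 125 and 124 CPM) and Nfkb1 (151 and 161 against 159.9 and 158 CPM) were not called. The inhibitor Nfkbia rose from 42.6 and 40.3 CPM to 212 and 210.4 CPM, Tnfaip3, which shuts the pathway down, from 59.2 and 61.0 CPM to 150.3 and 148 CPM, and Traf1 and Cd83, a pair of its targets, from 0.484 and 0.817 CPM to 10.9 and 9.78 CPM and from 0.830 and 1.2 CPM to 28.0 and 29.8 CPM. Of the immediate-early genes, 17 of 27 were called higher and 1 lower (median 0.75). Ier3 rose from 48.3 and 49.4 CPM to 245 and 240.4 CPM, Egr2 from 7.95 and 10.3 CPM to 41.5 and 39.8 CPM, Maff, a small Maf factor, from 24.4 and 25.5 CPM to 71.1 and 71.4 CPM and Fos from 58.4 and 56.7 CPM to 146 and 149.6 CPM, whereas Jun was at 156 and 159.9 against 182 and 189 CPM and Dusp2, a phosphatase of lymphocytes, fell from 70.9 and 73.6 CPM to 26.4 and 26.7 CPM. The log2 changes of this list ran from -1.44 to 2.31, and those of the fibroblast feeder genes from 0.14 to 3.30 (median 1.06). The part of feeder cells in these rises was not tested.

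Interferon-stimulated genes rose in 17 of 28 members (60.7%, against 18.3% of all genes), mostly at low levels. They fell in 3 (10.7%, below the 18.9% of all genes), and the median was 1.04. Oas2 and Oasl1, of the family that senses double-stranded RNA, went from 0.207 and 0.436 CPM to 11.9 and 11.5 CPM and from 0.760 and 0.436 CPM to 16.0 and 15.3 CPM, and Mx1, a GTPase against viruses, from 0.207 and 0.218 CPM to 5.75 and 4.75 CPM. Trim30a and Gbp3 were among those that fell, the latter from 25.1 and 22 CPM to 7.73 and 7.35 CPM. The summed level of the list was 230.6 and 227.6 CPM at 0 hpi and 282 and 267.6 CPM at 1 hpi.

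The machinery of lysosomes rose in 21 of 38 members and fell in 1 (median 0.71). Ctss and Ctsb, cathepsins that digest proteins, went from 43.1 and 42.8 CPM to 388 and 397 CPM and from 807 and 822 CPM to 2796 and 2769 CPM, and Lgmn, another lysosomal protease, from 72.7 and 76.0 CPM to 314 and 319 CPM. Among the subunits of the proton pump, Atp6v0d2, a form of macrophages and osteoclasts, rose from 1.04 and 0.926 CPM to 11.3 and 10.2 CPM, and of the 14 subunits tested 4 were called higher and 10 not at all. Tfeb, a regulator of lysosome genes, fell from 36.5 and 34.6 CPM to 23.0 and 22.2 CPM, and its relative Tfe3 rose from 63.1 and 58.8 CPM to 101 and 100.2 CPM. Of the genes for lipid handling 11 of 19 rose and 2 fell (median 0.99), led by Apoe from 19.9 and 21.7 CPM to 321 and 323 CPM, Lpl, which frees fatty acids, from 8.85 and 8.82 CPM to 94.6 and 96.5 CPM, and Alox5ap, the partner of 5-lipoxygenase, from 4.84 and 5.77 CPM to 42.5 and 42.2 CPM. Acsl1 fell from 71.3 and 68.6 CPM to 41.3 and 42.7 CPM and Abcg1, which exports cholesterol, from 31.3 and 32.1 CPM to 21.7 and 20.6 CPM. Of these falls, 1 was called without R35A 0 h replicate 2, and 1 without R35A 1 h replicate 2, and with DESeq2's size factors the lysosome list had 0 falls. In glycolysis 12 of 22 members rose and 0 fell (median 0.68), the largest being the myeloid hexokinase Hk3, from 1.52 and 1.80 CPM to 31.8 and 30.4 CPM, the lactate exporter Slc16a3, from 3.87 and 5.06 CPM to 42.5 and 45.1 CPM, and Hk2, from 92.0 and 89.3 CPM to 262 and 266 CPM. Of the actin and podosome genes 17 of 27 rose and 2 fell (median 0.63), Lgals3, a macrophage lectin, going from 88.1 and 84.4 CPM to 565 and 556 CPM and Cotl1, which binds actin filaments, from 54.2 and 59.5 CPM to 164 and 169.7 CPM, while Coro1a, a lymphocyte coronin, fell from 416 and 415 CPM to 199.6 and 201 CPM. The most abundant risen members of this list, Vim (2493 and 2549 against 3916 and 3912 CPM) and Flna (1715 and 1776 against 2783 and 2765 CPM), are genes that fibroblasts also express.

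**Figure D3:**
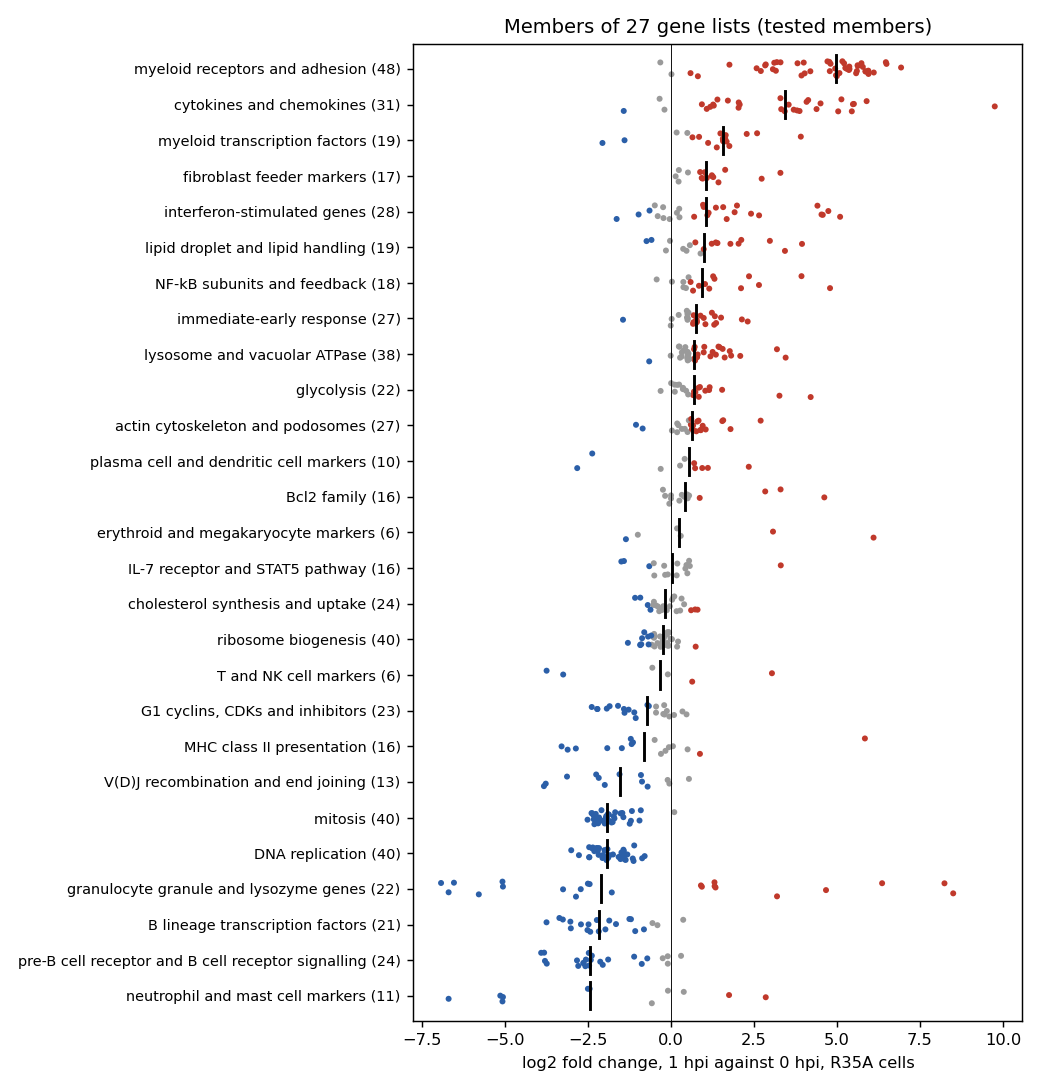
Fitted log2 fold change from 0 to 1 hpi in R35A cells (horizontal axis) of the tested members of 27 gene lists (rows, with the number tested), red for called higher, blue for called lower, grey for not called and a black bar for the list's median. Myeloid receptors and cytokines lie furthest to the right, the B cell and cell cycle lists to the left, and granule genes spread to both sides. Values of genes at the detection floor depend on the fit's prior.

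The B lineage factors fell. Of 21 tested, 18 were called lower and 0 higher, with a median log2 change of -2.17. Pax5, the factor that commits cells to the B lineage, went from 813 and 815 CPM to 79.1 and 79.8 CPM, and Ebf1, which acts before it, from 400.4 and 391 CPM to 72.4 and 74.6 CPM. Ikzf3 and Ikzf1, of the Ikaros family, fell from 229.6 and 241 CPM to 17.9 and 17.1 CPM and from 399.8 and 389.7 CPM to 87.8 and 87.3 CPM, Bach2 from 292 and 294 CPM to 30.7 and 30.7 CPM and Myb from 312 and 306 CPM to 39.9 and 35.8 CPM. The 3 that were not called were Id3 (266 and 267 against 345 and 345 CPM), an inhibitor of E proteins, Tcf12 (250.1 and 252 against 189 and 190.0 CPM) and Foxp1 (219 and 214 against 148 and 147 CPM). The E protein gene Tcf3 fell by 1.65 on the log2 scale and Foxo1, which sustains Rag and Il7r expression, by 1.25.

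The pre-B cell receptor and its signalling chain fell in 20 of 24 members and rose in 0 (median -2.44). The receptor's own parts went down together: Cd79a from 291 and 284 CPM to 51.1 and 46.3 CPM, Cd79b from 516 and 523 CPM to 83.9 and 83.3 CPM, Vpreb1 from 249 and 248 CPM to 41.5 and 38.5 CPM and Igll1 from 559 and 567 CPM to 107 and 109 CPM. Among the kinases and adaptors, Blk, a Src family kinase of B cells, fell from 189.7 and 184 CPM to 13.6 and 14.4 CPM and Blnk from 369 and 390.5 CPM to 85.3 and 88.6 CPM, whereas Syk fell only from 462 and 468 CPM to 251 and 255 CPM and Lyn was not called, at 83.5 and 91.8 against 83.4 and 81.0 CPM. Syk and Lyn serve myeloid cells too, as do Btk, Pik3cd, Plcg2 and Ptpn6, which fell by 2.05, 1.89, 1.11 and 0.71 on the log2 scale, and Pik3ap1, which was not called, at 146 and 159 against 143 and 144 CPM. Of the V(D)J recombination and end joining genes 10 of 13 fell and 0 rose (median -1.55). Dntt, which adds bases at the joints, fell from 149 and 146 CPM to 10.4 and 11.2 CPM and Rag2 from 14.5 and 16.0 CPM to 1.92 and 1.56 CPM. The general repair genes fell less or were not called, Prkdc going from 57.6 and 52.4 CPM to 28.7 and 30 CPM and Xrcc4 standing at 9.61 and 8.88 against 8.63 and 8.57 CPM.

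In the 3 B cell lists together 48 genes were called lower, and they kept between 6.67% and 61.5% of their level, with a median of 18.7%. Under 10% was left of 8 of them and under 5% of 0. Over all 1953 genes called lower with at least 10 CPM at 0 hpi, under 5% was left of 2, S100a9 and Arpp21, which were named by that limit after their values were seen.

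The IL-7 receptor pathway, which keeps pre-B cells alive, was mixed, with 1 member of 16 higher, 3 lower (18.8%, about the share among all genes) and a median of 0.04. Il7r was at 56.1 and 49.2 against 71.3 and 70.5 CPM, not called. Without R35A 1 h replicate 2, 2 members were higher, and with DESeq2's size factors 3, and the median was -0.0266 without R35A 0 h replicate 2. Socs3, a feedback inhibitor of cytokine signals, rose from 17.1 and 16.2 CPM to 162 and 167 CPM, while Socs2 fell from 84.8 and 80.4 CPM to 28.1 and 30.6 CPM and Ccnd3, the cyclin of pre-B cell division, from 158 and 169.7 CPM to 59.6 and 63.7 CPM. Genes of MHC class II presentation fell in 8 of 16 members (50%, against 18.9% of all genes) and rose in 2 (12.5%, below the 18.3% of all genes), with a median of -0.82. Ciita, the activator of these genes, fell from 17.1 and 17.9 CPM to 2.26 and 2.55 CPM, H2-Ob, a chain of the B cell regulator H2-O, from 62.2 and 63.6 CPM to 8.29 and 6.25 CPM, and Cd74, the invariant chain, from 229 and 237 CPM to 106 and 106 CPM. Cd86, a costimulatory molecule, rose from 0.968 and 1.42 CPM to 72.4 and 68.2 CPM.

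All 40 DNA replication genes tested were called lower, against 18.9% of all genes, with a median of -1.93 and a range from -3.0 to -0.79. Cdc6, which loads the helicase, fell from 87.9 and 84.9 CPM to 9.76 and 11.8 CPM, and Mcm5, a helicase subunit, from 384 and 403 CPM to 73.4 and 69.3 CPM. Uhrf1, which maintains DNA methylation, fell from 376 and 378 CPM to 56.9 and 53.7 CPM, and the clamp Pcna from 226 and 224 CPM to 79.6 and 71.6 CPM. In mitosis 39 of 40 genes fell, with the same median of -1.93. Cdc25b, a phosphatase that starts mitosis, fell from 144 and 146 CPM to 25.1 and 25.8 CPM, Kif11, a spindle motor, from 265 and 263 CPM to 51.1 and 50.9 CPM, Top2a from 785 and 747 CPM to 156 and 154 CPM and Ccnb1, a mitotic cyclin, from 49.5 and 46.7 CPM to 13.3 and 11.3 CPM. Pttg1, securin, was the exception, at 18.5 and 16.8 against 17.8 and 20.0 CPM. Of the genes that control entry into the cycle, 13 of 23 fell and 0 rose (median -0.71). The factors E2f7, E2f2 and E2f8 fell by 2.38, 2.22 and 2.21 on the log2 scale and cyclins Ccne2 and Ccne1 by 1.93 and 1.59. The inhibitor Cdkn1a stood at 1518 and 1517 against 1947 and 1917 CPM, and Ccnd1 and Ccnd2, the D cyclins that were not called, at 88.6 and 89.7 against 123.5 and 123 CPM and 452 and 432 against 380.4 and 387 CPM.

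Of 40 ribosome biogenesis genes 9 fell (22.5%, near the 18.9% of all genes) and 1 rose (median -0.24), the falls including the nucleolar proteins Npm1 from 589 and 549.7 CPM to 297 and 303 CPM and Ncl from 1835 and 1776 CPM to 1018 and 1051.5 CPM, and the rise being that of Myc, from 37.9 and 40.9 CPM to 64.9 and 67.7 CPM. Dkc1, which modifies ribosomal RNA, fell from 108 and 108 CPM to 43.8 and 44.2 CPM. Cholesterol synthesis had 3 higher and 4 lower of 24 (12.5% and 16.7%, both below the shares among all genes, median -0.17), and the largest fall was that of Dhcr7, the last step of the pathway, from 20.2 and 22.6 CPM to 10.3 and 10.1 CPM. With DESeq2's size factors 2 were lower, and Idi1, one of the 4, was not called without R35A 0 h replicate 2 or R35A 1 h replicate 2. In the Bcl2 family 4 of 16 rose (25%, against 18.3% of all genes) and 0 fell (median 0.42). Of these, Bcl2l2, a survival factor, went from 34.6 and 35.5 CPM to 63.2 and 64.9 CPM, and the other 3 were the near-identical copies Bcl2a1a, Bcl2a1b and Bcl2a1d, at the floor at 0 hpi, whose reads cannot be assigned with certainty. Without R35A 0 h replicate 2 the list had 2 members higher, Bcl2a1a and Bcl2a1d being no longer called, and Bcl2a1d lost its call without R35A 1 h replicate 1 as well. Bcl2l11 (Bim), Mcl1 and Pmaip1 were not called, at log2 changes of 0.50, 0.55 and 0.49.

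Markers of other cells were followed beside these lists. Of 17 fibroblast feeder genes tested, 13 rose and 0 fell (median 1.06), Dcn, decorin, going from 27.4 and 28.8 CPM to 189 and 185 CPM, Pdgfra from 38.2 and 40.6 CPM to 120 and 125 CPM and Col3a1 from 143 and 141 CPM to 382 and 383 CPM, while Sparc (1065 and 1067 against 1519 and 1524 CPM) and Acta2 (1466 and 1496 against 1644.5 and 1625 CPM) were not called. Of 11 neutrophil and mast cell genes 6 fell and 2 rose. The share that rose was about the 18.3% of all genes, so nothing is read from that count. The 2 were Csf3r (1.04 and 0.708 against 6.54 and 5.90 CPM) and Mcpt8, a basophil protease, (7.61 and 10.2 against 29.1 and 31.9 CPM). Pf4 and Ppbp, chemokines of platelets that macrophages can also make, rose among 6 tested erythroid and megakaryocyte genes, Pf4 from 2.49 and 2.18 CPM to 159 and 161 CPM, and Tfrc, the transferrin receptor of dividing cells, fell from 276 and 260.2 CPM to 105 and 105 CPM. Of 6 tested T and NK cell genes, Lck fell from 38.2 and 37.0 CPM to 2.93 and 2.66 CPM and Zap70 from 2.63 and 1.91 CPM to 0.169 and 0.289 CPM, while Cd28 rose from 2.97 and 3.16 CPM to 24.2 and 26.6 CPM and Cd4 from 1.80 and 1.52 CPM to 2.26 and 2.89 CPM, and 8 further markers of these cells were too low to be tested. The call for Cd4 was lost without R35A 0 h replicate 2 and without R35A 1 h replicate 2. Of 10 tested plasma cell and dendritic cell genes 5 rose (50%, against 18.3% of all genes) and 2 fell (20%, near the 18.9% of all genes). Prdm1 went from 5.53 and 5.06 CPM to 28.5 and 25.1 CPM and Slamf7 from 104 and 101 CPM to 18.7 and 21.1 CPM. Genes that leukocytes express in general were listed after the values were seen, so they are a description and no yardstick for the other lists. Of 18, 1 rose (5.56%, against 18.3% of all genes), 5 fell (27.8%, against 18.9%) and 12 were not called (median -0.37). Ptprc, which encodes CD45, stood at 214 and 211 against 236 and 226 CPM and Lcp1 at 324 and 326 against 335 and 328 CPM. Rac2 fell the most among the 18, from 338 and 359 CPM to 101 and 102 CPM.

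From 1 to 3 hpi 69 genes were called higher (0.406%) and 25 lower (0.147%) in R35A cells. Of the 69, 38 had also been called higher in the first hour, 14 lower and 17 not at all. The granule and lysozyme list held 6 of the 69, Mmp8 among them, out of 22 tested. The neutrophil and mast cell list, which shares genes with it, held 4 out of 11 tested. S100a9, Ngp and Ltf, which had fallen, were called higher again but stayed low, with means of 1.48, 0.968 and 0.678 CPM at 3 hpi. Among the genes above 10 CPM, inflammatory genes went on rising: Acod1 from 34.3 and 32.0 CPM to 74.8 and 68.8 CPM, Tnf from 41.8 and 42.2 CPM to 85.2 and 88.2 CPM, Cxcl2 from 64.5 and 64.1 CPM to 122 and 125 CPM, Il1b from 14.3 and 11.9 CPM to 23.1 and 27.5 CPM and Clec4e from 84.0 and 87.3 CPM to 166 and 161 CPM. Mmp8 rose further from 313 and 311 CPM to 467 and 471 CPM. Fcrls and Agtr2, both higher after the first hour, fell again, Fcrls from 17.3 and 15.7 CPM to 9.90 and 10.2 CPM and Agtr2 from 11.2 and 13.0 CPM to 5.37 and 5.67 CPM. Without R35A 3 h replicate 2 the count of called genes was 54 in place of 94. These were chosen from 28 such genes after their values were seen. Of the 6329 genes called in the first hour, 65 were called again between 1 and 3 hpi, in either direction, and at any size of change 1141 of the 16988 had an adjusted p of at most 0.05 (edgeR quasi-likelihood test).

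The medians of most lists were near their 1 hpi values in the next hours. That of the myeloid receptors was 4.96 after 1 h and 5.14 after 3 h. After 6 h it was 4.89, after 18 h 5.39 and after 120 h 8.37. That of the B lineage factors was -2.17, -2.0, -2.17, -3.09 and -4.36 in the same order, and that of DNA replication -1.93, -1.89, -2.03, -2.35 and -1.69. The fibroblast feeder genes had medians of 1.06, 0.91, 0.80 and 0.87 up to 18 hpi and of -2.88 at 120 hpi. The granule and lysozyme genes moved back, from -2.11 after 1 h to -0.676 after 3 h and -1.19 after 6 h. The neutrophil and mast cell genes went from -2.45 to -1.33 and -1.38. At 1 hpi 7 and 3 members of these lists were at the floor. All these values share the 0 hpi libraries, so they are not independent of each other.

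**Figure D4:**
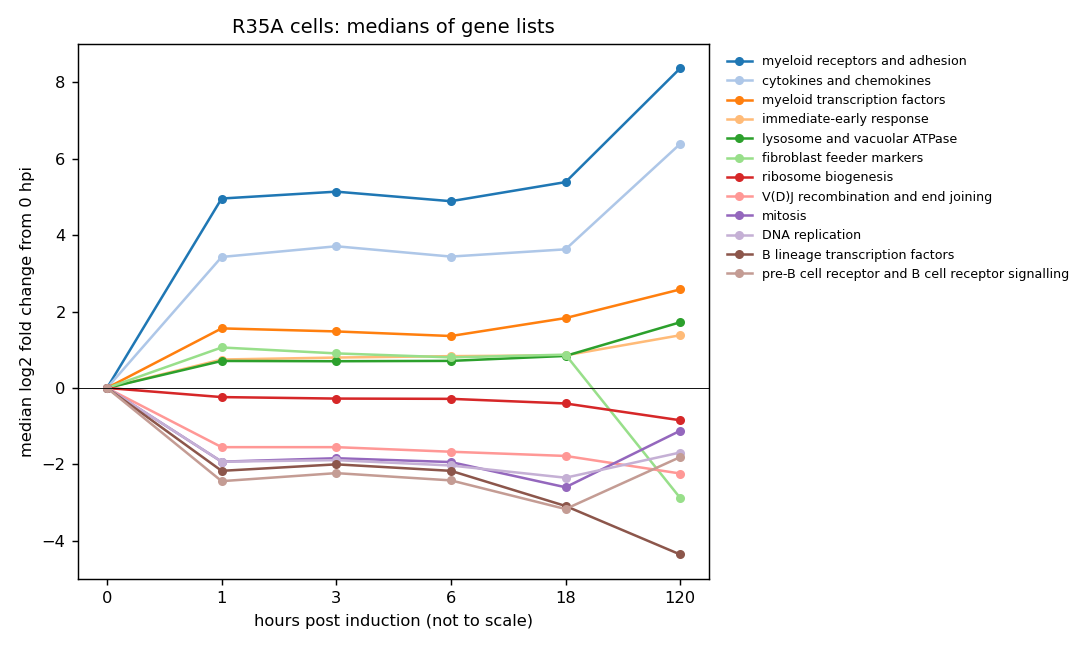
Median fitted log2 fold change from 0 hpi (vertical axis) of 12 gene lists in R35A cells, 1 line per list, against the hours after induction (horizontal axis, not to scale). The step from 0 to 1 hpi is followed by nearly level lines up to 6 hpi. The granule and neutrophil lists, whose medians moved back after 1 hpi, are not among the 12.

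To ask which of these changes were larger with the R35A mutant, the first-hour change was compared with that of wild-type cells in 1 model. In wild-type cells 1814 genes (10.7%) were called higher and 1574 (9.27%) lower. The change in R35A cells was higher than in wild-type cells for 899 genes (5.29%) and lower for 1485 (8.74%). Of the 30 genes named for fold or CPM the difference was called for 21, a count that the choice of these genes by their change in R35A cells favours, so that nothing is read from it. Lyz2 changed by 6.36 in R35A and 4.09 in wild-type cells on the log2 scale (difference 2.27, adjusted p = 5.98e-35, edgeR quasi-likelihood test), and Mmp8 by 8.50 and 5.42. Enpep fell by 3.86 against 1.1 (difference -2.76, adjusted p = 6.42e-35) and Ighm by 2.76 against 1.05. For S100a9 no difference was called, with log2 changes of -5.07 and -5.02 and a difference of -0.05 ± 0.39 (SE), and the matrix genes Thbs1 and Fn1 rose by 1.28 against 1.09 and by 0.71 against 0.51, both differences being under the 1.5-fold threshold.

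By list, the difference from wild-type cells was called for 38 of 40 mitosis genes, all lower in R35A cells. For DNA replication it was 34 of 40, for the B lineage factors 13 of 21 and for the pre-B cell receptor chain 16 of 24, again all in the direction of the larger fall. In the mitosis list 11 genes were called lower in wild-type cells (median -0.49), as against 39 in R35A cells. Of the myeloid receptors 35 of 48 had a higher and 1 a lower change in R35A cells, and of the NF-kB genes 10 of 18 a higher one, Tnfaip3 changing by 1.31 in R35A and 0.17 in wild-type cells. Over all tested genes 5.29% had a higher and 8.74% a lower change in R35A cells. The immediate-early genes had 0 higher and 1 lower of 27, and the fibroblast feeder genes 1 higher of 17. These counts are near or below the shares of all genes, so nothing is read from them. Of the lipid handling genes 5 of 19 had a higher and 0 a lower change in R35A cells. Apoe changed by 3.95 in R35A and 0.58 in wild-type cells (adjusted p of the difference = 7.21e-34, edgeR quasi-likelihood test). Lpl, of the same list, changed by 3.43 and 3.51, a difference that was not called. Neither gene was among the 30 named for fold or CPM.

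With at least 10 CPM in a group and a called difference, 10 genes had opposite calls in the R35A and wild-type cells. Dnajc6, an auxilin that uncoats vesicles, went from 12.0 and 11.7 CPM to 4.40 and 4.57 CPM in R35A cells and from 10 and 10.7 CPM to 25.65 and 24.8 CPM in wild-type cells. Satb1, a chromatin organizer of lymphocytes, fell from 32.0 and 32.0 CPM to 21.3 and 21.1 CPM in R35A cells and rose from 32.9 and 33.1 CPM to 62.2 and 62.2 CPM in wild-type cells, and Ssh2, a cofilin phosphatase, fell from 183 and 179.8 CPM to 105 and 101 CPM and rose from 188 and 195 CPM to 304 and 306 CPM.

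In R35K cells, whose libraries were fitted on their own, 2548 genes (15.5%) were called higher and 2866 (17.4%) lower of 16434. Of the 3048 genes higher in R35A cells that were tested in R35K cells, 2010 (65.9%) were called higher there and 0 lower. Of the 3119 that were lower in R35A cells, 2390 (76.6%) were lower and 0 higher. These are 79.4% of the R35K rises and 83.5% of the R35K falls among genes tested in both. The wild-type cells shared 46.6% of the R35A rises and 41.1% of the R35A falls, which are 79.9% and 84.0% of the wild-type calls. DNA replication genes fell in 38 of 40 in R35K cells with a median of -1.49, mitosis genes in 37 of 40 with a median of -1.26, and myeloid receptors rose in 45 of 48 with a median of 5.6.

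**Figure D5:**
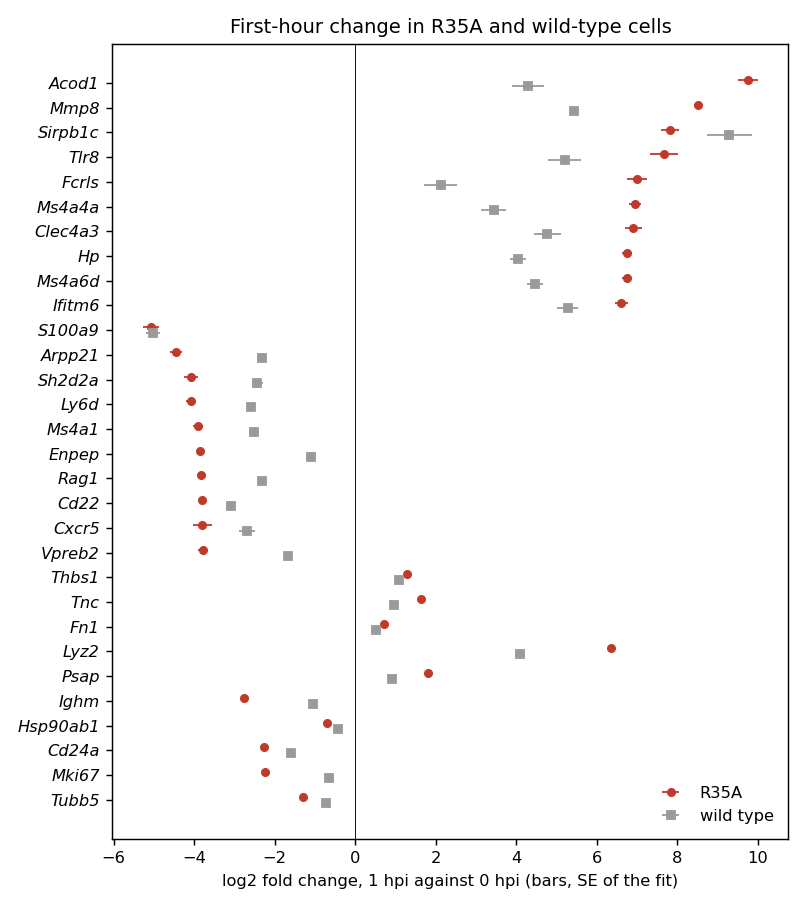
Fitted log2 fold change from 0 to 1 hpi (horizontal axis, bars are the SE of the fit) of the 30 genes named for fold or CPM, red circles for R35A and grey squares for wild-type cells. The genes were picked by their change in R35A cells, which by itself favours the larger value there. The R35A value lies further from 0 for 29 of the 30, the exception being Sirpb1c, which is at the detection floor at 0 hpi and whose fitted value depends on the fit's prior.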

How the data were processed

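RNA-seq of R35A cells at 0 and 1 hpi was analysed from the deposited table of raw counts per gene. Per the labels and the study's methods, the authors made stranded mRNA libraries (TruSeq), aligned single-end reads to mm10 with STAR 2.5.0a, counted reads per gene with it and used DESeq2 1.14.1; the annotation release and the strand column are not given in the sources used here. Their tables of log2 normalized counts were not used, and 0 columns of the count tables were left unused. Each column was assigned to a group by its name and the sample label.

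Counts were fitted with edgeR 4.0.16 (R 4.3.3), with filterByExpr, TMM and quasi-likelihood F tests, using a joint model of 12 groups for the 24 libraries of wild-type and R35A cells and another for the 12 R35K libraries. Calls needed a 1.5-fold change and a p of at most 0.05 after Benjamini-Hochberg adjustment over all tested genes, an adjustment that the study's methods do not state. SEs derive from the F statistic. Named genes were the 10 largest folds in each direction among called genes with a mean of at least 10 CPM in the higher group and no overlap of replicates (predicted genes and immunoglobulin segments passed over), the 5 largest changes in CPM in each direction, and up to 4 called members of each of 27 lists with the largest fold; members that were not called could be named with their values. The members and lists were chosen with earlier results of these data known. On data simulated from these libraries for the comparison of R35A cells at 1 and 0 hpi, 96% of genes changed 2-fold and 100% of those changed 4-fold were recovered over 16221 genes, with 3 false calls. Only 100 genes were changed 2-fold and 100 4-fold there, equally up and down and above a minimum of counts. In the data 6329 genes were called, so the simulation does not measure recovery or false calls at that extent of change. Symbols were placed with GENCODE vM21, and 16747 of the 16988 tested were found there once. Promoters were taken from RefSeq on GRCm38.p6, the first listed per gene.

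The alternatives were DESeq2 1.42.0, DESeq2's size factors, other filters and thresholds, a fit of only the groups compared, a replicate block and leaving out each library. A few genes are not reported here by name.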

Additional observations from a re-analysis of the deposited data

Results flagged for a closer look

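The first-hour change differed between R35A and wild-type cells for 2384 genes by the test of the difference itself (edgeR quasi-likelihood test, at least 1.5-fold, Benjamini-Hochberg adjusted p at most 0.05). The values below are the log2 change in R35A cells minus that in wild-type cells, for genes of the report that passed this test.

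Among the risen genes the difference was 3.08 for Mmp8, 3.51 for Ms4a4a, 2.71 for Hp, 2.27 for Ms4a6d, 2.27 for Lyz2, 0.91 for Psap and 0.67 for Tnc. It was 5.47 for Acod1 and 4.87 for Fcrls, a pair of genes at the detection floor at 0 hpi in R35A cells, whose fitted values depend on the fit's prior.

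Among the fallen genes it was -2.76 for Enpep, -2.12 for Arpp21, -2.12 for Vpreb2, -1.71 for Ighm, -1.66 for Sh2d2a, -1.57 for Mki67, -1.52 for Rag1, -1.49 for Ly6d, -1.39 for Ms4a1, -1.11 for Cxcr5, -0.73 for Cd22 and -0.67 for Cd24a. In the same comparison Cebpa and Esr1, the genes that the construct's parts come from, had differences of -0.83 and -1.54. The part of these unequal construct reads in the other differences was not tested.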

How the results depend on the processing

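Of 6329 genes called from 0 to 1 hpi in R35A cells, the count was 5939 with a DESeq2 Wald test, 6401 with DESeq2's size factors, 6554 without the low-count filter, 6124 in a fit of the compared groups alone and 6005 to 6137 leaving out each library in turn. With the size factors the split was 3554 higher and 2847 lower, and the all-gene median moved to 0.0665. With them the split turned to 2934 higher and 2444 lower in R35K cells, from 2548 and 2866, and was 1114 and 1319, from 899 and 1485, for the difference between R35A and wild-type cells. A 2-fold threshold gave 3670 genes in R35A cells, 1708 in wild-type cells, 3137 in R35K cells and 1289 for the difference between R35A and wild-type cells. The call between 1 and 3 hpi, 94 genes in all, was the least stable: it gave 41 genes with the Wald test, 35 at 2-fold, 369 with unadjusted p and 54 without R35A 3 h replicate 2 (54 to 98 over the libraries left out). With a replicate block the counts were 6310 for R35A cells, 3375 for wild-type cells, 2363 for the difference, 90 from 1 to 3 hpi and 5400 for R35K cells, each within 1.5 times the count without it. The replicate numbers share no stated source, and over 66 pairs of groups the median correlation of the replicate differences was -0.00681 (-0.0228 between R35A cells at 0 and 1 hpi), with 2 pairs above 0.1, so no pairing was assumed. Over single genes and list counts, 1526 values kept their call or, for list counts, stayed within 1.5 times the main count. Of the others 31 were weaker and 9 stronger, and none of the gene-level changes reversed in sign. The median of the IL-7 list, 0.04, became -0.0266 without R35A 0 h replicate 2. The cause of these shifts was not tested.

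Each group had 2 libraries, and genes at 3 or fewer counts allow only bounds.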

Other observations

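A fall over 1 h can be written as a half-life: were no new RNA made after 0 hpi, a log2 change of -1 would equal 60 min. CPM are shares of a mixed library, so a change in the mix of cells moves these values too, and they set no limit on how long an RNA lasts. By this arithmetic, 322 of the 1953 genes called lower in R35A cells with at least 10 CPM at 0 hpi fell as fast as a half-life of 30 min or less, 60 as fast as 20 min or less and 5 as fast as 15 min or less. In wild-type cells it was 38, 4 and 2 of 820 genes. The values for Enpep, Rag1 and Cd22 in R35A cells were 15.6, 15.7 and 15.7 min, that for Pax5 was 17.9 min and those for Ighm and Mki67 21.8 and 26.8 min. Why RNA levels of so many genes fell to this extent was not tested.

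Genes that span long stretches of the genome were called higher more often. Of the 776 tested genes over 200 kb in GENCODE vM21, 224 (28.9%) were higher and 123 (15.9%) lower in R35A cells, against 880 (15.9%) and 1075 (19.4%) of the 5528 genes up to 10 kb. In wild-type cells 22.4% of the genes over 200 kb and 8.77% of those up to 10 kb were higher. March1, which spans 853.7 kb, went from 1.94 and 1.42 CPM to 23.5 and 24.7 CPM, and an RNA made from end to end within 60 min would need 14.2 kb per min. Slc9a9 spans 560.5 kb and went from 0.968 and 0.926 CPM to 10.4 and 11.2 CPM, which would need 9.34 kb per min. Aoah, an enzyme that inactivates bacterial lipopolysaccharide, spans 242.5 kb and had 0.415 and 0.109 CPM at 0 hpi and 17.4 and 17.9 CPM at 1 hpi. These genes were chosen after their values were seen, and shorter transcripts from inner starts were not examined.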
